A study of Homo sapiens with 6 samples.

Results

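The clustered protocadherins are 53 protein-coding genes on chromosome 5 whose symbols begin with PCDHA, PCDHB or PCDHG. They were chosen by symbol and position alone in the GENCODE v44 annotation, and all 53 were among the 37902 genes of the deposited table. The alpha cluster has 15 of them, the beta cluster 16 and the gamma cluster 22. A mean of at least 10 normalised counts over the 6 libraries was reached by 34 members (5 alpha, 10 beta and 19 gamma), and these were tested together with all 14684 genes that reached it. PCDHB13 (mean 13.2) and PCDHA10 (13.6) were just inside this limit, and PCDHGA10 (9.56) and PCDHB11 (8.51) just outside.

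RNA-seq compared a knockout of POLDIP2, which encodes a protein that binds DNA polymerase delta, with wild type (WT) cells of ARPE-19, a human retinal pigment epithelial cell line. The POLDIP2 KO line was made by transduction with a lentivirus carrying SpCas9 and an sgRNA against POLDIP2, puromycin selection and expansion of the surviving cells, and no single-cell cloning is described. WT cells carry the label wildtype, and neither virus nor puromycin is described for them. Both lines were under regular maintenance and were collected on day 3, with 3 libraries each that are labelled as biological replicates 1 to 3. The p-values below measure the spread between these libraries.

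The WT libraries held 39657489, 36517259 and 35515478 reads assigned to genes, and the POLDIP2 KO libraries 31532797, 45795509 and 38293289. One read was therefore worth about 1 normalised count, and 3 reads, taken here as the lower limit of detection, were worth 2.44 to 3.69 normalised counts. POLDIP2 itself had 3919, 4827 and 4798 normalised counts in WT and 1063, 1248 and 1143 in POLDIP2 KO. It was lower in every POLDIP2 KO library, with a log2 fold change of -1.97 (SE 0.125, n = 3 and 3, adjusted p = 0.00961, limma with Benjamini-Hochberg adjustment over all genes tested). Of 13 markers of retinal pigment epithelium, 11 were tested by limma, and 0 passed the adjusted threshold or had an unadjusted p under 0.05. KRT8, a keratin of simple epithelia, was the most abundant of them with a mean normalised count of 39540 ± 3771 for WT and 41129 ± 7140 for POLDIP2 KO (SD, n = 3 each), whereas RPE65, the isomerase of the visual cycle, and TTR were at 0 in all 6 libraries.

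Clustered protocadherins are cadherin-like adhesion proteins of the cell surface that bind the same isoform on a neighbouring cell. Neurons are known to express a few isoforms each by choosing among promoters, which gives single cells different surface identities. Each alpha or gamma gene joins its own first exon to constant exons shared by its whole cluster, whereas each beta gene is a single exon. Most of these promoters are known to hold a short conserved element with the core CGCT, and the choice of promoter involves DNA methylation, the insulator protein CTCF and cohesin.

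The members lie on the plus strand at chr5:140786136-141512977 (GRCh38), with the alpha genes at chr5:140786136-141012347, the beta genes at chr5:141051374-141249365 and the gamma genes at chr5:141330514-141512977. The canonical transcript had 4 exons in every alpha and gamma gene and 1 in every beta gene. The shared exons limit the counts of single isoforms. When each canonical transcript was read in 100-base windows, 47.8 to 62.6% of the windows of an alpha gene and 44.3 to 53.7% of those of a gamma gene were also present in another gene of the region, against 0 to 29.8% for a beta gene (medians 52.8, 45.2 and 7.42%). Reads of these windows were divided among isoforms by Salmon, so the value of a single alpha or gamma member is less certain than its cluster's sum.

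RefSeq promoter sequences (GRCh38.p14, 250 bases before to 50 after the start) were available for 47 members. The letters CGCT were present on either strand in 46 of the 47 (97.9%), against 70.0% of all 35116 promoters. In these shares a member counted when any of its listed promoters held the letters, whereas the share of all is over single promoters. The longer GNCGCT, which contains CGCT and was chosen after the sequences were seen, was in 45 of the 47 (95.7%) against 44.02% of all. Its CGCT was searched for on the sense strand 11 to 110 bases upstream of the start, in the first promoter listed for each member. It lay there in 42 members, with the first match 11 to 95 bases away (median 59). The lower end of this range is the limit of the search. PCDHA9, PCDHAC2, PCDHB8, PCDHGB2 and PCDHGB7, whose values are also given below, had no match in this search. PCDHGC5 was among the 6 members without a promoter sequence. The 30-base windows around the letters are shown for 11 of the members with a match, with CGCT in capitals:
PCDHA4: tggagccacatgatgtCGCTctttaccaca
PCDHA12: atcagtcacatgatgtCGCTctacactcag
PCDHB9: ggaagccacaaggtggCGCTgcagactgaa
PCDHB14: tggagacacatggtggCGCTacaggataag
PCDHGA2: ttaggcctctgagcgtCGCTgttgaccacc
PCDHGA3: ttaggcctcttagtgtCGCTgttgaccact
PCDHGB4: tgctgactctgggcgcCGCTgttggccaaa
PCDHGB5: tgctgactctgggcgcCGCTgttggccaaa
PCDHGB6: cggagcctctgggcgcCGCTgtcggccagt
PCDHGC3: ctgggactctgtgtgcCGCTgtcggccaat
PCDHGC4: ggctgagcccgggagcCGCTgtctgccaat

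In the same order these windows are at chr5:140806979-140807008, chr5:140875244-140875273, chr5:141187074-141187103, chr5:141223263-141223292, chr5:141338703-141338732, chr5:141343767-141343796, chr5:141387617-141387646, chr5:141397863-141397892, chr5:141407924-141407953, chr5:141475880-141475909 and chr5:141484952-141484981, all on the plus strand. The windows of PCDHGB4 and PCDHGB5 are identical. PCDHGA2, the member with the largest log2 fold change by limma, and PCDHGB5, one with a small difference, both carry the letters in capitals. The letters CCCTC, part of the known CTCF motif, were in a promoter of 14 of the 47 members (29.8%). These were 3 of 13 alpha, 0 of 14 beta and 11 of 20 gamma members. Of all single promoters, 71.2% held the letters. These matches describe letters in a window and say nothing of binding.

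The gamma cluster made up most of the clustered protocadherin signal in ARPE-19. Its 22 members summed to 5942, 6226 and 5479 normalised counts in WT and 5965, 6481 and 5459 in POLDIP2 KO, or 84.9 to 94.6% of all 53 members. The 16 beta members summed to 353, 207 and 131 in WT and 502, 230 and 677 in POLDIP2 KO. The 15 alpha members summed to 362, 338 and 200 in WT and 290, 139 and 293 in POLDIP2 KO. In every library the gamma sum was the largest. The alpha sum was above the beta sum in all 3 WT libraries and below it in all 3 POLDIP2 KO libraries, but this order rests on single genes. Without PCDHAC2 the alpha sums of WT replicates 1 and 2 were 277 and 141, below the beta sums, and without PCDHB2 the beta sum of POLDIP2 KO replicate 3 was 224, below the alpha sum.

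**Figure D1:**
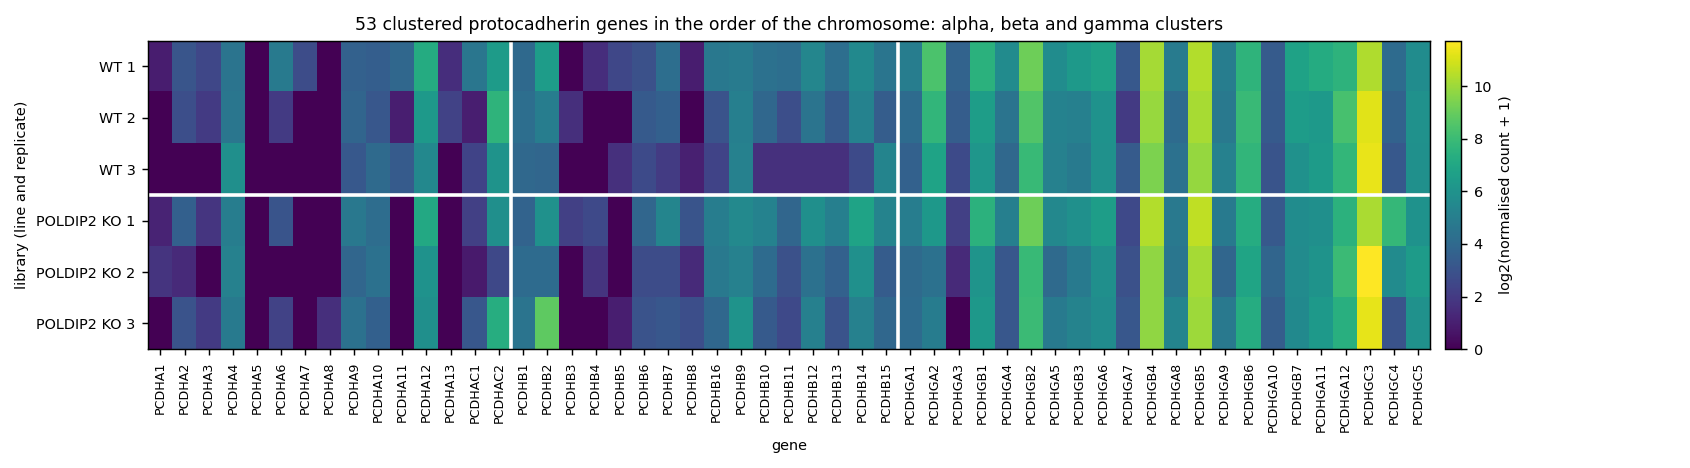
Heat map of log2(normalised count + 1) for the 53 members (columns, in chromosome order, with white lines between the alpha, beta and gamma clusters) in each of the 6 libraries (rows, WT above POLDIP2 KO). The brightest columns in all libraries are PCDHGC3, PCDHGB5 and PCDHGB4, and many alpha and beta columns are near 0 in both lines.

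Per kilobase of canonical transcript, PCDHGC3 was the most abundant member, with a mean level over the 6 libraries of 467 normalised counts per kb. It was followed by PCDHGB5 (249 per kb) and PCDHGB4 (205 per kb). By the same mean level the highest beta members were PCDHB2 (26.9 per kb), PCDHB14 (10.9) and PCDHB9 (9.09), and the highest alpha members were PCDHAC2 (16.4), PCDHA12 (16.1) and PCDHA4 (5.98). The order within beta and alpha was not the same in each line. The mean level of PCDHB2 was 10.7 per kb in WT and 43.2 in POLDIP2 KO, where 1 library carried it. PCDHB9 was above PCDHB14 in WT (7.22 and 6.61 per kb) and below it in POLDIP2 KO (10.96 and 15.2), and PCDHAC2 was above PCDHA12 in WT (20.2 and 16.7) and below it in POLDIP2 KO (12.6 and 15.6). Within gamma, PCDHGB5 was above PCDHGC3 in replicate 1 of WT (1329 and 1277 normalised counts) and of POLDIP2 KO (1543 and 1213). PCDHGB4, at 1340, was also above PCDHGC3 in POLDIP2 KO replicate 1. The gamma isoform with the highest mean level per kb, PCDHGC3, was above all alpha and beta members by that mean.

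The isoforms that were on were largely shared by the lines, and those that were off less so. An isoform was called on in a line with at least 10 reads in all 3 libraries and off with at most 3 reads in all 3. In WT 25 members were on (3 alpha, 4 beta and 18 gamma) and in POLDIP2 KO 28 (4 alpha, 7 beta and 17 gamma), of which 23 were on in both. With on set at 5 reads the numbers were 32 and 37, and at 20 reads 19 and 20. Without WT replicate 3 they were 32 in WT and 28 in POLDIP2 KO, and without POLDIP2 KO replicate 3 25 and 32. The number off was 6 in WT and 10 in POLDIP2 KO, with 4 off in both, and 11 members were neither on nor off in either line. No member was switched, that is, on in one line and off in the other. Single libraries had 40, 32 and 26 members with at least 10 reads in WT and 36, 33 and 30 in POLDIP2 KO, so the libraries of one line differed by more than the lines did.

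Members that were on in one line only did not reach the off state in the other. PCDHAC2 and PCDHGA4 were on in WT only. PCDHA9, PCDHA10, PCDHB12, PCDHB14 and PCDHB16 were on in POLDIP2 KO only. PCDHA5 had no read in any of the 6 libraries, an upper limit of 3 reads a library.

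PCDHGA3 and PCDHA11 came nearest to a switch, and both were under the limit for testing. PCDHGA3, the gene next to PCDHGA2, had 13, 10 and 5 reads in WT and 3, 2 and 0 in POLDIP2 KO. It was therefore off in POLDIP2 KO and, because of WT replicate 3, not on in WT. With on set at 5 reads, or without WT replicate 3, it was the 1 member switched. PCDHA11 had 15, 1 and 9 reads in WT and 0 in all 3 POLDIP2 KO libraries. Against a limit of 3 reads in each POLDIP2 KO library, its WT mean of 8.19 normalised counts was at least 2.70-fold higher, although WT replicate 2 had a single read. Without WT replicate 1, the highest of the WT libraries (14.2, 1.00 and 9.40 normalised counts), this bound would be lower. PCDHB8 had 1, 0 and 1 reads in WT and 6, 2 and 6 in POLDIP2 KO, all at or near the limit of detection.

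No member passed an adjusted p of 0.05 in the comparison of POLDIP2 KO with WT by limma (0 of 34), where 0.17% of all tested genes (25 of 14684) did. At an unadjusted p under 0.05 limma had 3 members, PCDHGA2, PCDHGB6 and PCDHGB7 (8.82%), against 6.48% of all genes, and all 3 were lower in POLDIP2 KO. On reads recovered from the table, DESeq2 called 1 member, PCDHGA2, where it called 1.89% of all genes, and edgeR called none, where it called 0.116% of all genes. Unadjusted, edgeR had 4 members (11.8%) at p under 0.05, against 6.52% of all genes. Over the 34 members 19 were higher and 15 lower in POLDIP2 KO, with a median log2 fold change of 0.07. This balance turned with single libraries, to 15 higher and 19 lower when POLDIP2 KO replicate 1 (median -0.13) or WT replicate 3 (-0.06) was left out and to 22 and 12 when WT replicate 1 was (0.24). All genes tested were split evenly (7334 higher and 7350 lower, median 0.00).

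PCDHGA2 (ENSG00000081853, chr5:141338760-141512975), a gamma-A isoform, had the largest log2 fold change of the 34 by limma. By DESeq2 and edgeR that of PCDHGC4, described below, was larger (2.93 and 2.91, against -2.40 and -2.40 for PCDHGA2). It had 332.5, 206.7 and 109.6 normalised counts in WT and 75.0, 19.5 and 29.8 in POLDIP2 KO. Every POLDIP2 KO library was below every WT library, and PCDHGA2 was lower in all 3 same-numbered pairs. The log2 fold change was -2.44 (SE 0.587, 95% confidence interval -3.83 to -1.05, n = 3 and 3). Its limma p was 0.00424 and its adjusted p was 0.289, over the threshold. With DESeq2 the log2 fold change was -2.40 and the adjusted p 0.00694, below the threshold, and with edgeR the adjusted p was 0.368. PCDHGA2 stayed on in POLDIP2 KO, with all libraries above 10 reads.

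Its neighbours on the chromosome are PCDHGA1 before it and PCDHGA3 and PCDHGB1 after it. PCDHGA1 had 30.2, 16.1 and 11.5 normalised counts in WT and 30.8, 15.5 and 15.9 in POLDIP2 KO, with overlapping groups. PCDHGB1 had 177, 90.3 and 71.0 in WT and 187, 65.9 and 74.5 in POLDIP2 KO, also overlapping. PCDHGA3, described above, was lower in POLDIP2 KO in all 3 pairs.

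Every POLDIP2 KO library was below every WT library in 4 members tested (11.8%), against 5.44% of all genes. Besides PCDHGA2 these were PCDHGB6, PCDHGB7 and PCDHGA11, further gamma isoforms. PCDHGB6 had 197, 247 and 207 normalised counts in WT and 153, 114 and 151 in POLDIP2 KO. Its log2 fold change was -0.64 (SE 0.209, adjusted p = 0.547 by limma). PCDHGB7 had 107, 89.3 and 59.5 in WT and 50.4, 48.8 and 45.7 in POLDIP2 KO, a log2 fold change of -0.77 (SE 0.302, adjusted p = 0.719 by limma). PCDHGA11 had 149, 79.3 and 86.7 in WT and 56.6, 63.5 and 77.5 in POLDIP2 KO, with 79.3 and 77.5 as the nearest values of the lines. Its log2 fold change was -0.62 (SE 0.319, adjusted p = 0.906 by limma), and it was -0.34 without WT replicate 1 and -0.24 without both libraries of replicate 1.

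Every POLDIP2 KO library was above every WT library in 3 members tested (8.82%), against 5.46% of all genes. They were PCDHA9, PCDHB9 and PCDHGC5, one of each cluster. PCDHA9 had 11.3, 13.04 and 8.35 normalised counts in WT and 24.6, 13.8 and 19.9 in POLDIP2 KO. PCDHB9 had 28.3, 32.1 and 34.5 in WT and 45.5, 35.0 and 63.5 in POLDIP2 KO. PCDHGC5 had 51.0, 60.2 and 58.5 in WT and 61.5, 85.5 and 60.6 in POLDIP2 KO. In each of the 3 the nearest values of the lines were under 1 normalised count apart, and the adjusted p-values by limma were 0.981, 0.982 and 0.9998.

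**Figure D2:**
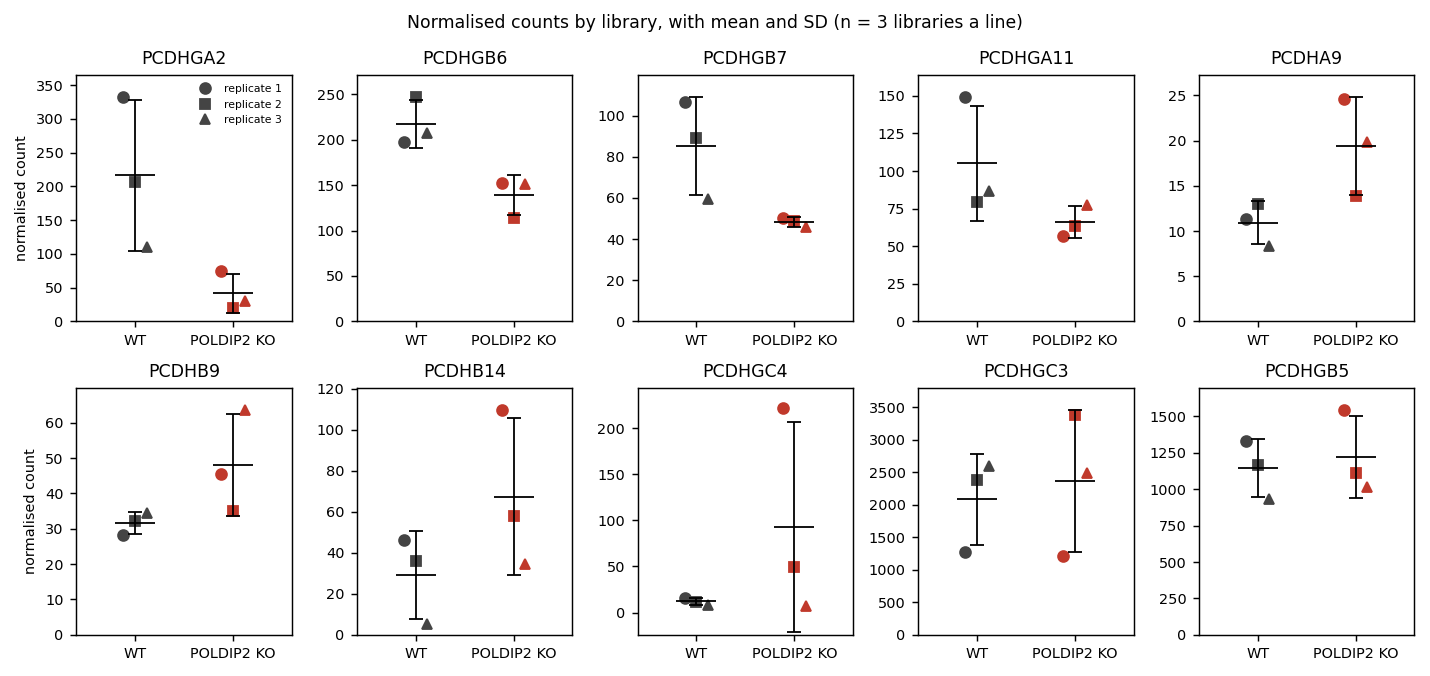
Normalised counts by library for 10 named members (WT grey, POLDIP2 KO red, marker shape for the replicate number, horizontal line for the mean and bars for the SD of 3 libraries). PCDHGA2, PCDHGB6, PCDHGB7 and PCDHGA11 are lower in every POLDIP2 KO library, PCDHA9 and PCDHB9 higher, and the lines overlap in the other 4.

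Most gamma-A isoforms had lower values in POLDIP2 KO, and none but PCDHGA2 had an unadjusted p under 0.05. Of 9 gamma-A members tested, 7 were lower in POLDIP2 KO (median log2 fold change -0.48, or -0.22 without POLDIP2 KO replicate 2), beside 7350 of 14684 for all genes. The split of the gamma-B members, 5 of 7 lower (median -0.10), turned with single libraries. It was 2 of 7 lower when WT replicate 1 (median 0.20) or POLDIP2 KO replicate 2 (0.14) was left out, and 7 of 7 when WT replicate 3 (-0.39) or POLDIP2 KO replicate 1 (-0.57) was. The 12 gamma-A members summed to 998, 805 and 610 normalised counts in WT and 582, 488 and 457 in POLDIP2 KO. These sums did not overlap, and their ratio was 0.633 (0.583, 0.607 and 0.749 in pairs 1 to 3). Without PCDHGA2 the gamma-A sums were 665, 598 and 500 in WT and 507, 469 and 427 in POLDIP2 KO, a ratio of 0.796, and the lines then overlapped. PCDHGA4 had 50.1, 22.1 and 14.6 in WT and 32.0, 8.14 and 7.94 in POLDIP2 KO, and PCDHGA5 had 51.0, 36.1 and 34.5 and 43.1, 15.5 and 26.8, both lower in all 3 pairs with overlapping groups. PCDHGA8 was higher, with a log2 fold change of 0.44.

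The 7 gamma-B members summed to 3600, 2969 and 2214 normalised counts in WT and 3888, 2477 and 2440 in POLDIP2 KO, a ratio of 1.00. PCDHGB5 had 1329, 1170 and 934 in WT and 1543, 1114 and 1013 in POLDIP2 KO. The 95% confidence interval around its log2 fold change of 0.09 was -0.39 to 0.57. PCDHGB4 had 1142, 963 and 680 in WT and 1340, 870 and 869 in POLDIP2 KO, with a log2 fold change of 0.15 (interval -0.44 to 0.74). For both, the difference between the lines was smaller than the spread among libraries of one line.

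The C-type isoforms are known to be expressed in neurons without the random choice of the others, and 4 of them (PCDHGC3, PCDHGC4, PCDHAC1 and PCDHAC2) varied widely among the libraries of one line. PCDHGC3, the most abundant by mean level, had 1277, 2380 and 2588 normalised counts in WT and 1213, 3380 and 2495 in POLDIP2 KO (log2 fold change 0.13, interval -0.87 to 1.12). It made up 21.5, 38.2 and 47.2% of the gamma sum in WT and 20.3, 52.2 and 45.7% in POLDIP2 KO, so replicate 1 was the low library of both lines. PCDHGC4 had 16.1, 12.04 and 8.35 normalised counts in WT and 221, 49.7 and 6.95 in POLDIP2 KO. Its log2 fold change of 1.81 (SE 1.12, adjusted p = 0.981 by limma) rests on 2 of the 3 POLDIP2 KO libraries, since the third was below all WT libraries. It was 0.65 without POLDIP2 KO replicate 1, 3.06 without POLDIP2 KO replicate 3 and 0.86 without both libraries of replicate 1. PCDHAC2 had 85.0, 197 and 64.7 in WT and 56.6, 4.88 and 155 in POLDIP2 KO, with a log2 fold change of -1.47 (SE 1.14) and overlapping groups. That value was -0.68 by DESeq2 and by edgeR, and by limma it was -0.13 without POLDIP2 KO replicate 2 and -2.50 without POLDIP2 KO replicate 3. PCDHAC1 was under the limit for testing, at 23.6, 1.00 and 4.18 in WT and 3.69, 0.814 and 7.94 in POLDIP2 KO.

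**Figure D3:**
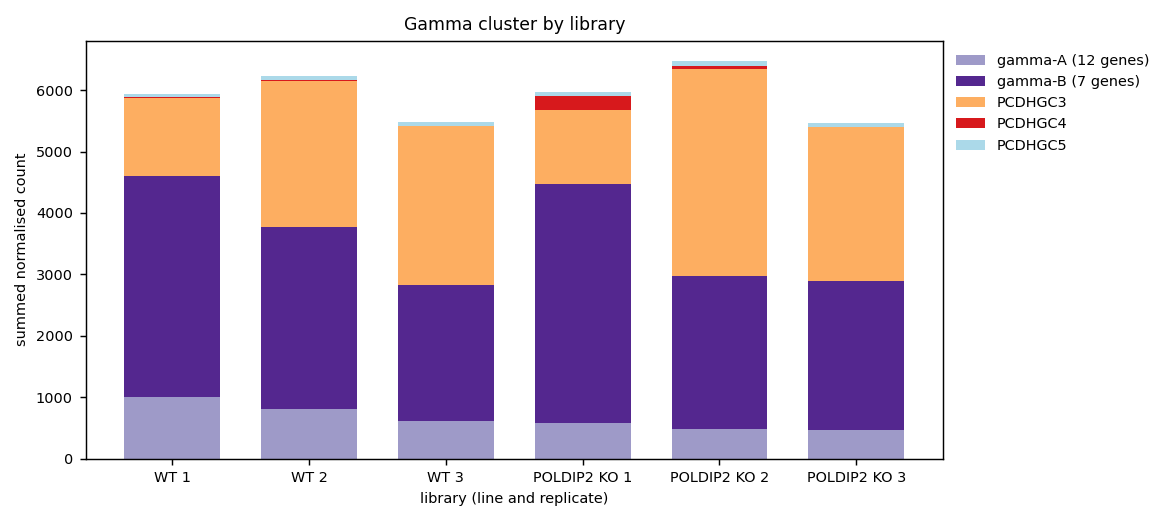
Stacked bars of normalised counts of the gamma cluster in each library, divided into the 12 gamma-A genes, the 7 gamma-B genes, PCDHGC3, PCDHGC4 and PCDHGC5. Total heights are 5459 to 6481 in all libraries, the PCDHGC3 segment is smallest in replicate 1 of both lines, and the gamma-A segment is smaller in each POLDIP2 KO library than in every WT library.

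The beta isoforms were higher in POLDIP2 KO in 9 of 10 members tested (median log2 fold change 0.86), and none had an adjusted p below 0.955 by limma. WT replicate 3 was the lowest of the 6 libraries in 7 of the 10, and without it 8 were higher and 2 lower with a median of 0.17. The split was 7 higher and 3 lower without POLDIP2 KO replicate 3 (median 1.00), and 10 higher and 0 lower without POLDIP2 KO replicate 2 (0.95). The median was 1.43 when WT replicate 1 was left out and 0.49 when POLDIP2 KO replicate 1 was. The cluster sum ratio was 2.04 (1.42, 1.11 and 5.19 in pairs 1 to 3). PCDHB2 decided much of this, with 87.9, 30.1 and 13.6 normalised counts in WT and 60.3, 16.3 and 453 in POLDIP2 KO. PCDHB2 was lower in POLDIP2 KO in 2 of its 3 pairs. Its log2 fold change was 1.19 with all libraries (2.01 by DESeq2) and -0.08 without POLDIP2 KO replicate 3. It was 2.28 without POLDIP2 KO replicate 2, 1.88 without WT replicate 1, 0.58 without WT replicate 3 and 2.06 without both libraries of replicate 1. Without PCDHB2 the beta ratio was 1.57 (1.66, 1.21 and 1.92 in pairs 1 to 3).

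PCDHB14 had 46.3, 36.1 and 5.22 normalised counts in WT and 109, 57.8 and 34.8 in POLDIP2 KO. PCDHB16 had 24.6, 7.02 and 4.18 in WT and 30.8, 26.1 and 13.9 in POLDIP2 KO. Both were higher in all 3 pairs with overlapping groups, and their log2 fold changes were 1.47 (SE 0.834) and 1.20 (SE 0.707). WT replicate 3 was the lowest of the 6 libraries for both, and without it the log2 fold changes were 0.55 and 0.71. Without WT replicate 1 that of PCDHB16 was 1.86. PCDHB15 was the 1 beta member tested that was lower, at 22.7, 10.03 and 38.6 in WT and 36.9, 9.77 and 13.9 in POLDIP2 KO.

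The alpha isoforms showed no common direction, with 3 of 5 members tested higher and 2 lower by limma, 2 and 3 by edgeR and DESeq2, and 4 and 1 after quantile normalisation. PCDHA12 had 148, 79.3 and 42.8 normalised counts in WT and 135, 61.9 and 55.6 in POLDIP2 KO. PCDHA4 had 21.7, 23.1 and 55.3 in WT and 30.8, 34.2 and 27.8 in POLDIP2 KO. Their log2 fold changes of -0.04 and 0.02 had 95% confidence intervals of -1.31 to 1.23 and -1.04 to 1.08, and differences within these intervals were not detectable at this spread. PCDHA12 followed the replicate number, whereas PCDHA4 was highest in WT replicate 3.

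**Figure D4:**
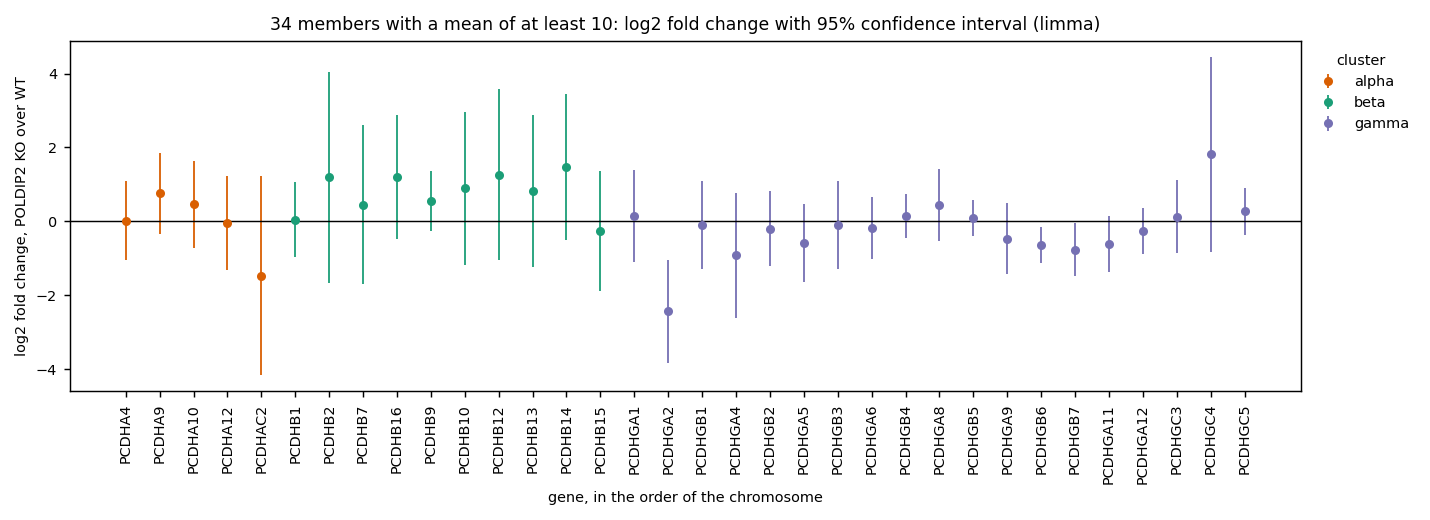
Log2 fold change of POLDIP2 KO over WT (limma, log2 of normalised count + 1) for the 34 members tested, in chromosome order and coloured by cluster, with 95% confidence intervals. Intervals that leave out 0 are those of PCDHGA2, PCDHGB6 and PCDHGB7, and 9 of 10 beta points are above 0.

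Libraries with replicate number 1 stood apart from the rest in these genes. Both libraries of replicate 1 were above the other 4 libraries in 14 of 34 members (41.2%), among them PCDHA12, PCDHGB2, PCDHGB4 and PCDHGB5, against 15.8% of all genes. They were below the other 4 in 1 member, PCDHGC3 (2.94%), against 15.1% of all genes. PCDHGB2, one of the 14, had 569, 376 and 235 normalised counts in WT and 557, 236 and 250 in POLDIP2 KO. Other lists differed in this trait. Both libraries of replicate 1 were above the other 4 in 0 of 4 non-clustered protocadherins, 0 of 3 neuronal markers and 2 of 21 regulators tested. The numbers were 3 of 11 for retinal pigment epithelium markers and 5 of 19 for neighbours on chromosome 5. They were 8 of 21 for partner genes and 4 of 8 for classical cadherins. Both libraries of replicate 1 were also above the other 4 in 6 of 7 markers of fibroblasts and mesenchyme. The exception was COL3A1, with 2.83, 3.01 and 7.31 normalised counts in WT and 124, 17.9 and 4.96 in POLDIP2 KO. TAGLN had 35183, 2229 and 1425 normalised counts in WT and 51738, 4102 and 5461 in POLDIP2 KO, and COL1A1 had 2147, 320 and 677 in WT and 6956, 760 and 1953 in POLDIP2 KO. The sum of the 7 was 211710, 145250 and 139830 in WT and 250910, 149980 and 163690 in POLDIP2 KO, most of it VIM. With all libraries the 7 were higher in POLDIP2 KO, with a median log2 fold change of 1.12 and no adjusted p below 0.873 by limma, and COL1A1 alone was called by limma when libraries were blocked by replicate number (adjusted p = 0.0436). Without both libraries of replicate 1, COL1A2 and PDGFRB were lower in POLDIP2 KO (log2 fold changes -0.52 and -0.04) and the other 5 higher. COL1A2 had 614, 0 and 1.99 normalised counts in POLDIP2 KO. Their part in the protocadherin values was not tested. In such bulk libraries fewer cells of a kind and less RNA per cell cannot be told apart. Without both libraries of replicate 1, 0 of 34 members passed by limma, PCDHGA2 had a log2 fold change of -2.59 (adjusted p = 0.303), and the splits of the beta members (9 higher, 1 lower) were as before.

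None of the markers of neurons, immune cells or endothelium passed the adjusted threshold by limma. Of 8 neuronal markers, 3 were tested (SYT1, MAP2 and TUBB3), and SNAP25, STMN2, DCX and ELAVL4 had at most 3 reads in every library. RBFOX3 had 2, 4 and 4 reads in WT and 1, 6 and 4 in POLDIP2 KO. The 8 markers summed to 3845, 4211 and 3866 normalised counts in WT and 4234, 4200 and 5440 in POLDIP2 KO. By mean normalised count over all libraries MAP2 was the most abundant (2017.5), before TUBB3 (1698) and SYT1 (580). Per kb TUBB3 was above MAP2 (996 and 209). TUBB3 also had more normalised counts than MAP2 in replicate 1 of WT (1766 and 1296) and of POLDIP2 KO (2323 and 1350). Of 4 immune markers only CD68, which epithelial cells also hold, was tested, with a log2 fold change of 0.01, and AIF1 was at 0. PTPRC had no read in WT and 1, 4 and 7 in POLDIP2 KO, and CD14 had 0, 3 and 2 reads in WT and 3, 8 and 3 in POLDIP2 KO. Their part in the protocadherin values was likewise not tested. Of 3 endothelial markers only VWF was tested, at 25.8 ± 12.8 in WT and 25.9 ± 14.5 in POLDIP2 KO (SD, n = 3 each).

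None of the regulators of the clusters passed the test. All 21 were tested by limma, 0 passed by limma or DESeq2 and 1, STAG2, had an unadjusted p under 0.05, with 11 higher, 10 lower and log2 fold changes between -0.19 and 0.51. CTCF, the insulator protein that links these promoters to their enhancers, had 2401, 2482 and 2907 normalised counts in WT and 2197, 2708 and 2845 in POLDIP2 KO. Its log2 fold change was -0.01 (SE 0.138). The cohesin subunit RAD21 and SMCHD1, a silencing protein that acts on these clusters, had log2 fold changes of -0.08 (SE 0.126) and 0.23 (SE 0.174). STAG2, another cohesin subunit, had 2306, 2823 and 3029 in WT and 3247, 3844 and 4525 in POLDIP2 KO, without overlap (log2 fold change 0.51, adjusted p = 0.531 by limma). EHMT2 was listed at 0 in replicates 2 and 3 of both lines.

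Nor did any of the partners of the proteins. The 22 listed genes were those for kinases bound by the cytoplasmic domain, for its proteases and for the WAVE complex, with PDCD10, AXIN1 and CTNNB1. Of these, 21 were tested, 12 were higher and 9 lower, with log2 fold changes between -0.16 and 0.23. Among them 0 passed by limma or DESeq2 or had an unadjusted p under 0.05 by limma. ADAM10, the protease that sheds the extracellular part, had mean normalised counts of 10547 for WT and 11599 for POLDIP2 KO, and PTK2, which encodes focal adhesion kinase, of 5999 and 5651.

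Other members of the cadherin superfamily did not pass by limma either. Of 12 non-clustered protocadherins, which lie outside the 3 clusters, 4 were tested. PCDH7 had 569, 695 and 350 normalised counts in WT and 2280, 1218 and 3131 in POLDIP2 KO, without overlap. Its log2 fold change was 1.99 (SE 0.388), its limma adjusted p 0.186 and its DESeq2 adjusted p 1.1e-05. PCDH9 was lower in POLDIP2 KO at an unadjusted p of 0.0472 (log2 fold change -0.39, adjusted p = 0.761 by limma). Of 19 classical and related cadherins 8 were tested, 3 higher and 5 lower, and 0 passed by limma or DESeq2 or had an unadjusted p under 0.05 by limma. The lowest log2 fold change among them was that of CDH13, which encodes T-cadherin, at -1.31 (SE 0.998), with 18.9, 29.1 and 27.1 normalised counts in WT and 27.1, 18.7 and 0.993 in POLDIP2 KO. That of CDH13 was -0.69 by DESeq2 and by edgeR, and -2.21 by limma without both libraries of replicate 1. CDH2, which encodes N-cadherin, was the most abundant at 10894 ± 4041 in WT and 11705 ± 3416 in POLDIP2 KO (SD, n = 3 each), whereas CDH1, E-cadherin, had a mean of 4.60 in WT and 10.1 in POLDIP2 KO.

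Genes that are no protocadherins of the cluster but lie beside or within it had a median log2 fold change near 0. Of 23 such neighbours on chromosome 5, 19 were tested, 11 were higher and 8 lower (median 0.04), and 0 had an unadjusted p under 0.05. TAF7, which lies between the beta and gamma clusters and encodes a subunit of the TFIID complex, had 3687, 2602 and 2823 normalised counts in WT and 3410, 3138 and 3206 in POLDIP2 KO. DIAPH1, a formin gene, had 7385, 6562 and 6604 in WT and 6176, 6715 and 6623 in POLDIP2 KO.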

How the data were processed

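The deposited table held 1 signal value per gene and library: read estimates made by the authors with Salmon 1.8 against GRCh38, summarised to genes with tximport and normalised with DESeq2 1.34.0. All 6 columns were used (0 left out). The smallest non-zero value of a column was taken as 1 read, and 100% of values were then whole within 0.001.

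Gene symbols came from GENCODE v44 (34152 of 37902 genes, of which 16563 were 0 everywhere). Members, lists and tests were chosen with earlier results of these data known. A gene of 1 list is not reported here. WT and POLDIP2 KO were compared with limma 3.58.1 (R 4.3.3) on log2(normalised count + 1) over genes reaching a mean of 10 normalised counts, using a trended variance and Benjamini-Hochberg adjustment. Fold changes are on this scale, where the added 1 draws in those of low genes and logs are averaged, so they can be below or above those of DESeq2 and edgeR. The lower limit of 3 reads covers counting error only. edgeR 4.0.16 and DESeq2 1.42.0 were run on the recovered reads. Other alternatives were the pseudocount, the filter, quantile normalisation, the variance model, the replicate block and leaving out each library. Summaries and plots used pandas 2.3.3 and matplotlib 3.10.9.

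The named members were the 5 with the smallest unadjusted p in each direction, the 3 highest per kb of each cluster, the C-type isoforms and PCDHGA2, which is in the study's own list of changed genes. That list was made from these libraries and is not independent evidence. Other members, such as PCDHGA3, PCDHA11, PCDHB8, PCDHB15, PCDHGA1, PCDHGB1 and PCDHGB2, were chosen after their values were seen. Both lines carry replicate numbers 1 to 3 in the labels. Deviations of same-numbered libraries from their line's mean were correlated across all tested genes. Their r was 0.315, 0.137 and 0.129 for numbers 1 to 3, against -0.259 to 0.147 for different numbers. The numbers were taken to pair the libraries because r was over 0.1 for each. WT replicate 3 with POLDIP2 KO replicate 2 (0.147) also met this rule, so the pairing of numbers 2 and 3 is uncertain. The main fit left the pairing out, and the replicate block was an alternative. Over the members alone the same-numbered correlations were 0.479, -0.177 and 0.0913, and those of different numbers reached 0.298, so values of members by pair are descriptions.

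On data simulated for this comparison (14502 genes, 198 changed), limma recovered 54.5% of the changed genes (74.3% at 4-fold and 32.3% at 2-fold) and 6.9% of its calls were false. DESeq2 recovered 72.7%, with 27.3% of its calls false. The simulated counts were negative binomial, drawn independently for each library and without a replicate effect. In the real libraries replicate 1 stood apart, so these rates may not hold for them.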

Additional observations from a re-analysis of the deposited data

How the results depend on the processing

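No member passed under the other limma settings, edgeR or any left-out library, and DESeq2 called 1 (PCDHGA2, log2 fold change -2.40). The number of genes called, 25 by limma, was 277 with DESeq2, 16 with a mean of at least 50, 4 without both replicate 1 libraries and 0 to 5 with 1 library left out. With the replicate block 30 genes and 0 members passed, 15 of the 30 shared with the fit without it, and PCDHGA2 had an adjusted p of 0.0881. The block changed no call of a member. Among listed pathway and neighbour genes DESeq2 called 1, PCDH7. POLDIP2 kept log2 fold changes of -2.07 to -1.91 with 1 library left out, but its adjusted p was above 0.05 without replicate 2 or 3 of either line (0.0558 to 0.0886). With on at 5 reads 1 member was switched, and with 1 library left out 0 to 1.

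The gamma sum ratio of 1.01 was 0.989 as a share of all reads, 0.949 without PCDHGC3 and 0.971 to 1.06 with 1 library left out. Of 300 repeat values for 18 named members, 18 changed sign, in 6 members near 0 or set by 1 library. PCDHA4 had a log2 fold change of -0.11 with DESeq2, -0.11 with edgeR, -0.21 without both replicate 1 libraries and -0.21 to 0.44 with 1 library left out. PCDHA12 had 0.0143 after quantile normalisation, 0.0086 without both replicate 1 libraries and -0.48 to 0.41 with 1 library left out. With 1 library left out the ranges were -0.075 to 2.28 for PCDHB2, -0.0626 to 0.31 for PCDHGB4, -0.0923 to 0.21 for PCDHGB5 and -0.19 to 0.55 for PCDHGC3. The causes were not tested. Leaving out replicate 1 of both lines, PCDHGC3, PCDHB2, PCDHAC2 or PCDHGA2 was chosen after the values were seen. With 3 libraries a line, the spread of low isoforms limits what can be detected.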
